A study of Mus musculus with 10 samples.

Results

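Tomato luminal cells (TLC) were set against Tomato basal cells (TBC), both sorted from mouse mammary glands after luminal cell ablation. The comparison rests on 4 of the 10 libraries of the series, 2 of TLC and 2 of TBC, chosen by the cell type written in their labels. Luminal cells (LC) and basal cells (BC), 2 libraries each, carried no treatment label and gave the luminal to basal difference of glands without a stated ablation. The second library of LC and of BC was labelled wild type, and the first was not. Tomato is a red fluorescent protein used as a heritable mark of chosen cells and their descendants. The labels name neither the promoter that drives the mark, nor the way luminal cells were removed, nor the age, strain or number of mice in a library. Replicates are therefore separate libraries of 1 population, and p-values measure the spread between libraries, which may be partly technical. A population of Tomato hybrid cells (THC, 2 libraries) entered the fit only to help estimate that spread.

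The mammary epithelium is a bilayer. Basal or myoepithelial cells line the outside, anchor to the basement membrane through hemidesmosomes and contract in response to oxytocin to expel milk. Luminal cells face the lumen, are sealed by tight junctions and fall into hormone-sensing cells, which carry estrogen and progesterone receptors, and secretory progenitor or alveolar cells, which make milk. In the adult gland each layer is mostly maintained by its own unipotent progenitors, and the series title concerns how contact between both layers controls multipotency. The comparison thus asks how completely marked luminal cells and marked basal cells were separated in their transcripts after ablation, and which features of the usual bilayer were kept.

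Counts assigned to genes were 5632671 and 9799263 in TLC, 6730120 and 13270498 in TBC, 9746963 and 13685674 in LC, and 5381351 and 12286209 in BC. Levels are given as CPM (counts scaled to a common library size) of replicate 1 and then replicate 2, and differences as log2 with their standard error (SE). A gene was called at an adjusted p under 0.05 in edgeR's quasi-likelihood test, adjusted by Benjamini-Hochberg over all genes tested. Of 19757 genes tested, 2689 were called between TLC and TBC (13.6%), 1105 higher in TLC (5.59%) and 1584 lower (8.02%). At least 4-fold differences were found in 510 of the higher and 850 of the lower genes, and at least 16-fold ones in 80 and 222. Libraries of TLC and TBC did not overlap in 10760 genes (54.5%), among them every called gene. The median over all genes tested was 0.03 on the log2 scale. By defining markers the labels fitted, since TLC held more of the luminal keratins Krt8, Krt18 and Krt19 and TBC more of Acta2, Krt5 and Trp63, while Krt14 remained in TLC at 34.6% of its TBC level.

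The sharpest separation was in the smooth-muscle apparatus of the myoepithelium. Of 19 contractile genes tested, 15 were lower in TLC and 0 were higher, against 8.02% of all genes lower, and their median log2 difference was -4.27. Acta2, smooth-muscle alpha-actin (GRCm38 chr19:34241090-34255590, minus strand), had 55.6 and 57.97 CPM in TLC, against 3643 and 2742 CPM in TBC. Both TLC libraries were thus near 1.78% of TBC on average (log2 -5.81 ± 0.54, adjusted p = 7.91e-05). Myh11, the smooth-muscle myosin heavy chain, had 36.7 and 55.3 CPM in TLC, against 4067 and 3030.1 CPM in TBC (log2 -6.26 ± 0.55, adjusted p = 6.45e-05). Cnn1, the actin-binding calponin, had 4.39 and 8.10 CPM in TLC, against 781 and 529 CPM in TBC, which was the second lowest difference by the naming rule (log2 -6.67 ± 0.45, adjusted p = 2.64e-05). In bulk libraries, fewer cells expressing a gene and less RNA of it per cell cannot be told apart.

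The promoters of Acta2 and of the myosin light chain gene Myl9 are shown because both held matches to the CArG box. Serum response factor, which drives smooth-muscle genes, binds this motif. No other contractile gene lower in TLC held a match in the windows found. A CArG box is a pair of C, 6 bases of A or T and a pair of G, and it reads the same on both strands. Capitals mark each match with at most 1 G or C among the 6 middle bases. The windows (GRCm38.p6) run from 250 bases before a RefSeq start to 50 bases after it. For Acta2 that start lies inside the GENCODE gene coordinates given above, so its positions do not count from the GENCODE start.
Acta2, chr19:34255324-34255623, minus strand: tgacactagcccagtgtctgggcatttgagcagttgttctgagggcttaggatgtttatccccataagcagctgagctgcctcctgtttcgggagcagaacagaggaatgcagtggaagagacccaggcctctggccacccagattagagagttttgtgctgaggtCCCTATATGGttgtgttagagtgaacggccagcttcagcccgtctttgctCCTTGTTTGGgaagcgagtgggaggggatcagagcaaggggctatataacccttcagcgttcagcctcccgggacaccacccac
Myl9, chr2:156775214-156775513, plus strand: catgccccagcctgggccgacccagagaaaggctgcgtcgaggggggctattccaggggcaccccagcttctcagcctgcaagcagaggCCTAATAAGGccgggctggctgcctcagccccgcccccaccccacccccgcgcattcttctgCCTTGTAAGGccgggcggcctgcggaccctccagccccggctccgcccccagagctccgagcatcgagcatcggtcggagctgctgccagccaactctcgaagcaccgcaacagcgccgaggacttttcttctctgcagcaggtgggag
The first match of Myl9, at -161 from the start, followed the consensus, while its match at -99 and those of Acta2 at -84 and -34 held 1 G or C in the middle. Windows were found for 15 contractile genes. The consensus stood in 2 of them (Myl9 and Srf), against 1.81% of all 27025 genes with a window, 2.38% of the genes lower in TLC and 1.34% of those higher. Allowing 1 G or C, a form of the search added after the values were seen, gave 4 of 15 (Acta2, Mrtfa, Myl9 and Srf), against 11.3% of all genes. It gave 11.9% of the genes lower in TLC and 11.9% of those higher. A match is a match of letters only, and most contractile genes lower in TLC that had a window held none. No window was found for Actg2, Myh11, Tagln and Myocd, so these were not searched.

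Filament and filament-binding genes moved together. All 6 filament-binding genes were lower in TLC, as were 6 of 7 filament genes. Tagln, the calponin-related transgelin, had 37.5 and 35.3 CPM in TLC, against 1486 and 1045 CPM in TBC (log2 -5.12 ± 0.33, adjusted p = 2.50e-05). Gm48529, a predicted gene on the opposite strand of the same locus, gave nearly the same counts, and without a stated strand setting its reads cannot be told from those of Tagln. Tpm1, a tropomyosin that many cell types use, was the least lowered of the called filament genes, with 498 and 467 CPM in TLC, against 1175 and 971 CPM in TBC (log2 -1.15 ± 0.23, adjusted p = 0.00669). Des, desmin, had 1.05 and 1.09 CPM in TLC, against 4.58 and 3.08 CPM in TBC and did not pass (log2 -1.80 ± 0.62, adjusted p = 0.0813).

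Both genes that link contraction to its signals were lower. Oxtr, the oxytocin receptor, had 44.6 and 37.04 CPM in TLC, against 2416 and 1303 CPM in TBC (log2 -5.51 ± 0.46, adjusted p = 4.98e-05). Mylk, the myosin light chain kinase, had 75.8 and 57.5 CPM in TLC, against 1429.5 and 1132 CPM in TBC (log2 -4.27 ± 0.51, adjusted p = 0.000399). Of the 4 transcription factors or coactivators of the list, 1 was called. Myocd, the smooth-muscle coactivator myocardin, was lower (0.175 and 1.09 CPM in TLC, against 14.8 and 10.8 CPM in TBC, log2 -4.12 ± 0.83, adjusted p = 0.00678). Srf had 86.7 and 73.8 CPM in TLC, against 131 and 159.9 CPM in TBC and its coactivators Mrtfa and Mrtfb had log2 differences of -0.53 and 0.31, with adjusted p = 0.0719, 0.122 and 0.417, so none of these 3 was called.

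**Figure D1:**
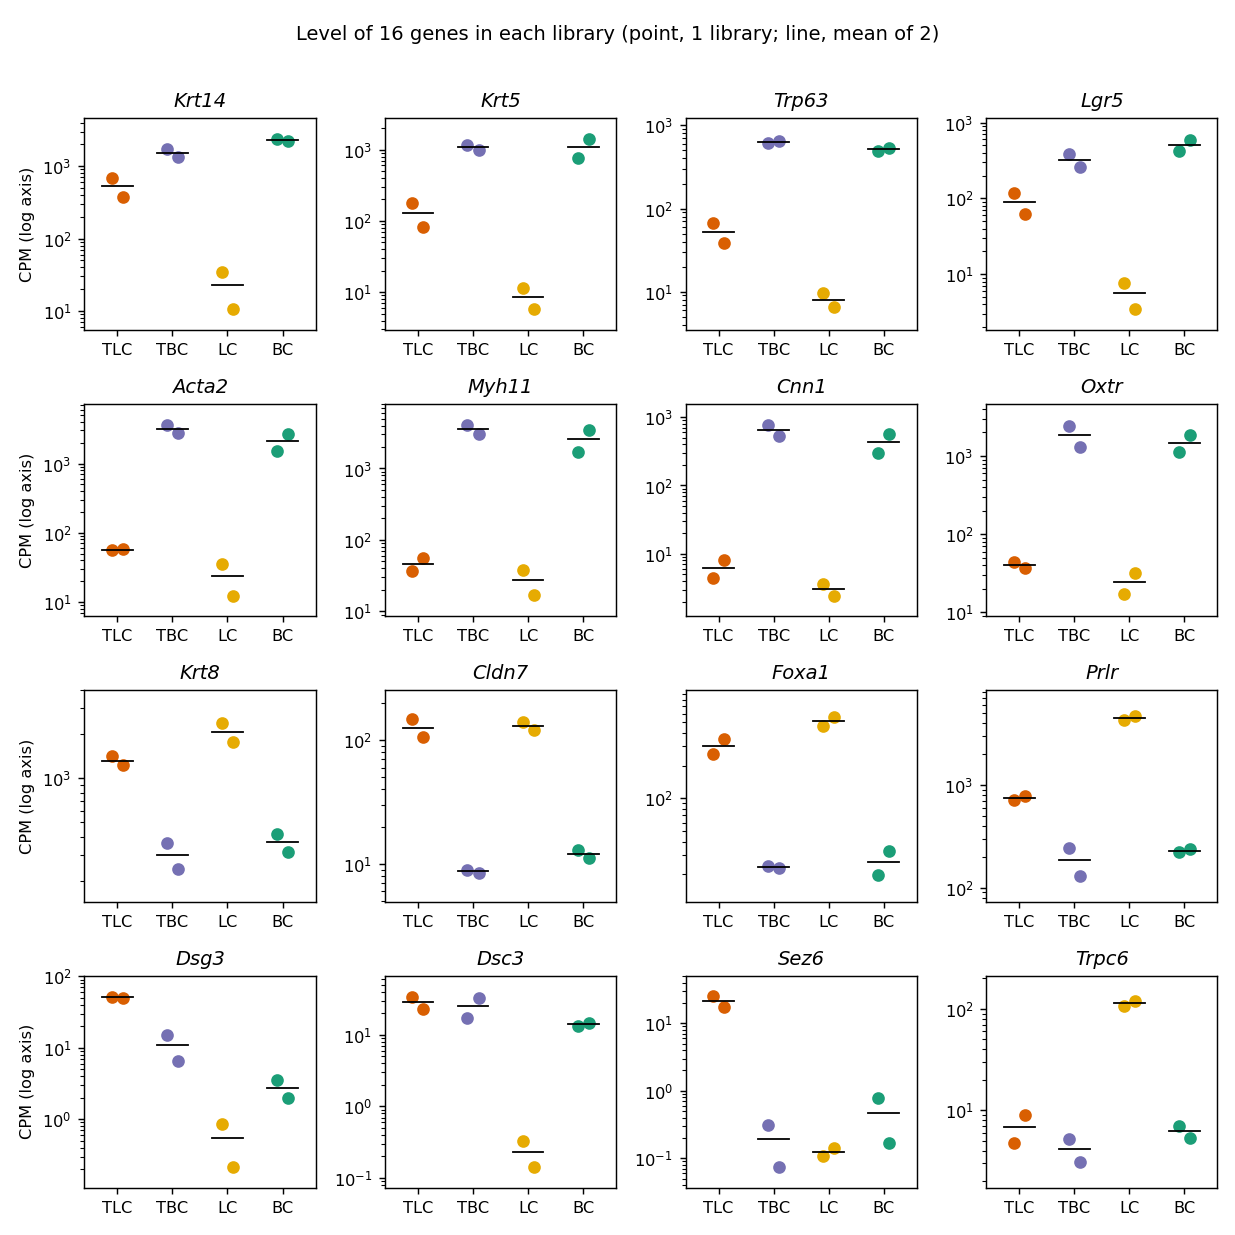
Level of 16 genes in CPM on log axes, 1 panel per gene, with TLC left of TBC and LC left of BC, 1 point per library and a line at the mean of 2. TLC lie far below TBC for Acta2, Myh11, Cnn1 and Oxtr, between LC and TBC for Krt14, Krt5, Trp63 and Lgr5, and far from LC for Dsg3, Dsc3, Sez6 and Trpc6.

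Basal keratins and identity factors had a smaller median difference than the contractile genes. Of 14 tested, 10 were lower in TLC and 0 were higher (8.02% of all genes were lower), with a median log2 difference of -2.24. Krt14, the basal keratin used most often to mark this layer (chr11:100203162-100207548, minus strand), had 676 and 379.8 CPM in TLC, against 1724 and 1330.5 CPM in TBC, a level in TLC of 34.6% of TBC. The libraries did not overlap, but the difference did not pass (log2 -1.53 ± 0.51, adjusted p = 0.0799). Krt5, its partner keratin, was lower at 178 and 81.2 CPM in TLC, against 1176 and 991 CPM in TBC (log2 -3.07 ± 0.48, adjusted p = 0.00202). Krt17 was lower as well (220.2 and 152 CPM in TLC, against 959 and 671 CPM in TBC, log2 -2.13 ± 0.43, adjusted p = 0.007), and Krt15 was not called (adjusted p = 0.0803).

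All 5 transcription factors of the list were lower in TLC. Trp63, the master regulator of basal identity, had 66.3 and 38.6 CPM in TLC, against 613 and 649 CPM in TBC (log2 -3.60 ± 0.33, adjusted p = 7.20e-05). Snai2, the repressor Slug, had 17.4 and 8.74 CPM in TLC, against 183 and 161 CPM in TBC (log2 -3.75 ± 0.38, adjusted p = 0.000133). Id4 and Tbx2 followed with log2 differences of -3.37 and -2.09. Bcl11b, which keeps mammary stem cells quiescent in mice, had 31.05 and 22.2 CPM in TLC, against 82.7 and 74.4 CPM in TBC and was near the threshold (log2 -1.57 ± 0.45, adjusted p = 0.0454). Its call was lost when any of the 4 libraries was left out, with adjusted p up to 0.245. Among surface and secreted products, Cdh3, P-cadherin, had 97.2 and 53.96 CPM in TLC, against 400.1 and 363 CPM in TBC (log2 -2.34 ± 0.39, adjusted p = 0.00239), and Cxcl14, a chemokine, showed the largest difference of the list (17.2 and 17.4 CPM in TLC, against 816 and 712 CPM in TBC, log2 -5.46 ± 0.75, adjusted p = 0.00154).

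The same 2 lists read differently in LC and BC. Contractile genes were at a median of 4.95% of their TBC level in TLC and at 3.77% of their BC level in LC. Basal keratins and factors were at a median of 21.3% in TLC against TBC and at 1.69% in LC against BC. Krt14 was at 34.6% in the Tomato pair and at 0.996% in LC against BC (34.8 and 10.6 CPM in LC, against 2344 and 2216 CPM in BC). Acta2 was at 1.78% and 1.13%. The difference between both pairs was tested for each gene as (TLC minus TBC) minus (LC minus BC), where 0.911% of all genes were called. It was called for 6 of the 14 basal genes (Krt5, Krt14, Krt17, Trp63, Bcl11b and Cdh3), all toward a smaller gap in the Tomato pair, and for 1 of the 19 contractile genes, the tropomyosin Tpm2 (2.43, adjusted p = 0.0219, kept in 4 of the 8 fits that left out a library). For Krt14 it was 5.13 ± 0.76 on the log2 scale (adjusted p = 0.0163) and for Acta2 0.67 ± 0.62 (adjusted p = 0.807). The 6 basal calls rest on few libraries. Leaving out each of the 8 libraries of both pairs in turn kept the call of Cdh3 in 7 fits, of Bcl11b in 4, of Krt14, Krt5 and Krt17 in 3 and of Trp63 in 2, with adjusted p up to 0.0928 for Krt14 and 0.12 for Krt5, in both cases without TBC replicate 2. The direction stayed in each of those fits.

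**Figure D2:**
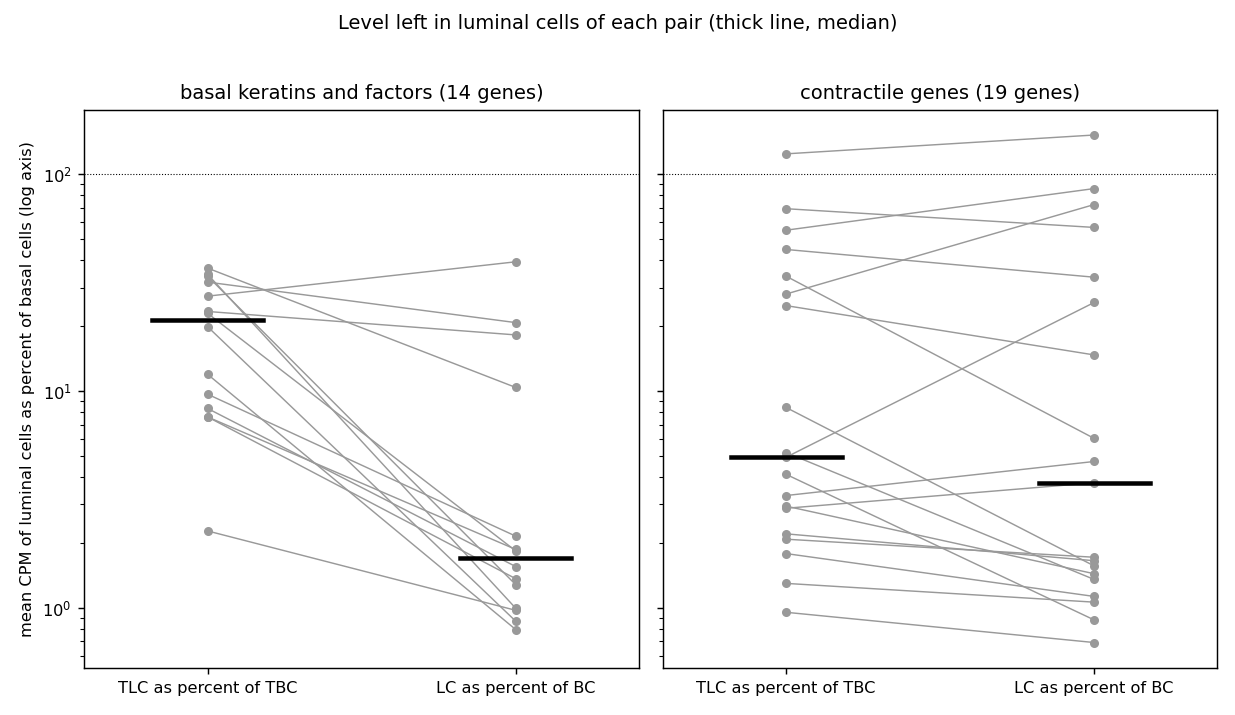
Mean level of luminal cells as a percent of basal cells on a log axis for 14 basal keratin and factor genes (left) and 19 contractile genes (right), with TLC as percent of TBC left of LC as percent of BC. Each grey line is 1 gene and the thick line is the median, which is 21.3% and 1.69% for the basal genes and 4.95% and 3.77% for the contractile genes.

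Basement membrane and hemidesmosome genes, which anchor basal cells to the matrix, were lower in TLC in 17 of 28 cases and higher in 0. The shares of all genes were 8.02% and 5.59%, and the median of the list was -1.63. The collagen IV chains Col4a1 and Col4a2 were the lowest. Col4a1 had 72.1 and 58.7 CPM in TLC, against 1109 and 1219.8 CPM in TBC (log2 -4.16 ± 0.47, adjusted p = 0.000284), and Col4a2, its neighbour in the opposite orientation, had a log2 difference of -4.72. All 6 collagen genes and 6 of 7 laminin chains were lower, Lama3 at 112 and 71.6 CPM in TLC, against 976 and 770.4 CPM in TBC (log2 -3.26 ± 0.28, adjusted p = 5.32e-05). Lama5, the chain also made by luminal cells, was not called (adjusted p = 0.337). Of 8 integrin genes 4 were lower, with Itga9 at 9.82 and 10.8 CPM in TLC, against 108 and 80.3 CPM in TBC (log2 -3.18 ± 0.28, adjusted p = 5.32e-05). Itgb4, the hemidesmosome integrin beta chain, had 248 and 269 CPM in TLC, against 311 and 262 CPM in TBC and did not pass (log2 -0.15 ± 0.21, adjusted p = 0.723). Col17a1, the hemidesmosome collagen, was lower in TLC (223 and 85.9 CPM in TLC, against 1198 and 820.1 CPM in TBC, log2 -2.71 ± 0.44, adjusted p = 0.00215) yet by less than in LC against BC, where its log2 difference was -5.91 (difference between pairs 3.20, adjusted p = 0.0412, kept in 1 of 8 fits that left out a library). Thbs1, the matrix protein thrombospondin, had 2002 and 1569.6 CPM in TLC, against 2524 and 1563 CPM in TBC and was not called in the Tomato pair (adjusted p = 0.798), with LC against BC at -2.85 and a difference between pairs of 2.65 (adjusted p = 0.0426, kept in 0 of 8 such fits).

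On the luminal side, keratins and surface proteins were higher in TLC in 13 of 16 cases and lower in 0, against 5.59% of all genes higher. Their median log2 difference was 2.01, and 2.45 in LC against BC. Krt8, the simple-epithelium keratin, had 1418 and 1226 CPM in TLC, against 361 and 241 CPM in TBC (log2 2.13 ± 0.33, adjusted p = 0.00137). Its partner Krt18 had 1302 and 920.4 CPM in TLC, against 249 and 139.6 CPM in TBC (log2 2.52 ± 0.39, adjusted p = 0.00146), and Krt19 had 778 and 659 CPM in TLC, against 102 and 68.6 CPM in TBC (log2 3.08 ± 0.28, adjusted p = 7.26e-05). Both TLC libraries stood above both TBC libraries for each of them. All 4 keratins of the list, Krt7 included, were higher, and so were the adhesion genes Epcam, Cdh1 and Cd24a. Epcam, used in sorting epithelium, had 903 and 728 CPM in TLC, against 232 and 173 CPM in TBC (log2 2.01 ± 0.28, adjusted p = 0.000762). Of the luminal transcription factors, Ehf had the largest difference (569.9 and 530.2 CPM in TLC, against 17.8 and 24.3 CPM in TBC, log2 4.70 ± 0.39, adjusted p = 4.98e-05) and Gata3, the regulator of luminal fate in mice, had 145 and 239 CPM in TLC, against 203 and 162 CPM in TBC with no call (adjusted p = 0.911). Muc1 and Grhl2 were the other members that did not pass, and the difference between both pairs was called for 0 of 16 by edgeR and for 3 by DESeq2, with 4 at an unadjusted p under 0.05.

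Tight junctions, which seal the luminal layer, gave the largest positive median of the lists, 2.83. In TLC 14 of 18 genes were higher and 0 lower, against 5.59% and 8.02% of all genes. In LC against BC the median was 2.52. All 6 claudins were higher. Cldn7 (on chr11) had 148 and 106 CPM in TLC, against 8.999 and 8.50 CPM in TBC and shared the smallest adjusted p of the comparison (log2 3.86 ± 0.24, adjusted p = 2.50e-05). Cldn3 had 129 and 143 CPM in TLC, against 14.5 and 17.2 CPM in TBC (log2 3.09 ± 0.23, adjusted p = 3.85e-05), and Cldn1 had 119 and 75.2 CPM in TLC, against 9.63 and 10.2 CPM in TBC (log2 3.29 ± 0.34, adjusted p = 0.000111). Ocln and the tricellulin gene Marveld2, both membrane proteins of the junction, had log2 differences of 3.45 and 3.49. Tjp3, a scaffold, was higher (66.3 and 101 CPM in TLC, against 5.53 and 6.96 CPM in TBC, log2 3.73 ± 0.38, adjusted p = 0.000111), while Tjp1, the scaffold ZO-1, did not pass (408 and 351 CPM in TLC, against 336 and 244 CPM in TBC, adjusted p = 0.378). Of the polarity genes Crb3 and Pard6b were higher and Prkci and Patj were not called. The difference between both pairs was called for 0 of 18 genes by edgeR, by DESeq2 and by limma-voom, with 2 at an unadjusted p under 0.05.

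Desmosomes, which rivet neighbouring epithelial cells, gave the only list whose median took opposite signs in the pairs. It was 0.50 in TLC against TBC and -1.001 in LC against BC. In TLC 4 of 10 genes were higher and 1 lower, against 5.59% and 8.02% of all genes. Dsg3, a desmosomal cadherin of stratified and basal epithelium (chr18:20510274-20547459, plus strand), had 51.9 and 50.4 CPM in TLC, against 15.3 and 6.52 CPM in TBC (log2 2.26 ± 0.46, adjusted p = 0.00795), while it had 0.867 and 0.215 CPM in LC, against 3.53 and 1.96 CPM in BC and was lower in LC (log2 -2.37, adjusted p = 0.0246). Without TBC replicate 2 the call of Dsg3 in the Tomato pair was lost (adjusted p = 0.0719). Dsc3, its partner cadherin, had 34.03 and 22.6 CPM in TLC, against 17.4 and 32.7 CPM in TBC, with overlapping libraries (log2 0.16 ± 0.35, adjusted p = 0.827). In the other pair Dsc3 had 0.325 and 0.144 CPM in LC, against 13.1 and 14.8 CPM in BC. These LC levels, and that of Dsg3 in LC replicate 2, were at or below 3 counts (0.325 and 0.215 CPM in LC). The size of their gaps in LC against BC is therefore poorly measured. Pkp1, a plaque protein, was higher in TLC (391 and 493 CPM in TLC, against 259.9 and 233 CPM in TBC, log2 0.84 ± 0.23, adjusted p = 0.028) and lower in LC than in BC (72.4 and 90.02 CPM in LC, against 249 and 316 CPM in BC). The call of Pkp1 between TLC and TBC was lost without TLC replicate 2, TBC replicate 1 or TBC replicate 2, with adjusted p up to 0.179.

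The difference between both pairs was called for these 3 genes, at 6.08 ± 0.66 for Dsc3 (adjusted p = 0.00397), 4.63 ± 0.81 for Dsg3 (adjusted p = 0.0296) and 2.64 ± 0.32 for Pkp1 (adjusted p = 0.00656). The calls of Dsc3 and Pkp1 were kept in all 8 fits that left out a library, and that of Dsg3 in 2, with adjusted p up to 0.109. The desmosome genes Dsc2 and Pkp2, typical of simple epithelium, had like values in both pairs. Dsc2 was higher by 1.67 in TLC and by 1.63 in LC, and Pkp2 by 3.06 and 3.59. Perp, a p63 target of desmosomes, was lower in TLC (log2 -0.94 ± 0.22, adjusted p = 0.0144), a call lost without TLC replicate 2, TBC replicate 1 or TBC replicate 2 (adjusted p up to 0.104).

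Hormone-sensing genes were higher in TLC in 6 of 13 cases and lower in 0, against 5.59% and 8.02% of all genes. Their median was 1.39, against 3.96 in LC and BC. Foxa1, the pioneer factor of estrogen receptor binding, had 256 and 353 CPM in TLC, against 24.00 and 23.1 CPM in TBC (log2 3.69 ± 0.30, adjusted p = 4.34e-05), and Cited1, a coactivator of estrogen receptor, had 63.7 and 57.1 CPM in TLC, against 7.58 and 5.28 CPM in TBC (log2 3.25 ± 0.32, adjusted p = 8.88e-05). In LC against BC the log2 differences of these transcription factors were 4.26 and 3.97, and their difference between pairs was not called (adjusted p = 0.697 and 0.64). The receptors and their paracrine outputs showed smaller gaps in the Tomato pair than in LC and BC. Esr1, estrogen receptor alpha, had 90.2 and 112 CPM in TLC, against 38.2 and 40.5 CPM in TBC (log2 1.36 ± 0.24, adjusted p = 0.00294), beside 400.0 and 511 CPM in LC, against 41.5 and 57.1 CPM in BC. Prlr, the prolactin receptor, had 718 and 781 CPM in TLC, against 243 and 130.1 CPM in TBC (log2 2.01 ± 0.32, adjusted p = 0.00164), beside 4247 and 4683 CPM in LC, against 221 and 238 CPM in BC. Pgr, the progesterone receptor, had 109.6 and 166 CPM in TLC, against 83.99 and 66.5 CPM in TBC and did not pass (log2 0.88 ± 0.30, adjusted p = 0.0788), beside 477 and 744 CPM in LC, against 55.1 and 78.7 CPM in BC.

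Areg, the amphiregulin that relays estrogen signals, had 109 and 83.5 CPM in TLC, against 31.3 and 19.6 CPM in TBC (log2 1.93 ± 0.26, adjusted p = 0.000613), beside 453 and 378 CPM in LC, against 18.03 and 18.5 CPM in BC. Wnt4, which relays progesterone signals, had 30.3 and 44.1 CPM in TLC, against 16.1 and 9.75 CPM in TBC (log2 1.55 ± 0.29, adjusted p = 0.00372), beside 161 and 213 CPM in LC, against 12.9 and 11.3 CPM in BC. For Esr1, Pgr, Prlr, Areg and Wnt4 the difference between both pairs was called at -1.84, -2.31, -2.27, -2.58 and -2.40, each toward a smaller gap in the Tomato pair. Only the call of Areg was kept in all 8 fits that left out a library, with adjusted p up to 0.0452, and those of Esr1, Pgr and Prlr were kept in 2 and that of Wnt4 in 3. The call of Wnt4 between TLC and TBC was lost without TBC replicate 2 (adjusted p = 0.0558).

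Progenitor and alveolar genes split by role. Of 19 tested, 7 were higher in TLC and 0 were lower, against 5.59% and 8.02% of all genes, with a median of 0.28. Elf5, the transcription factor of alveolar fate, had 97.4 and 81.8 CPM in TLC, against 6.63 and 13.1 CPM in TBC (log2 3.14 ± 0.47, adjusted p = 0.00182), and it was the only 1 of 7 transcription factors in the list to pass. Kit, the receptor of luminal progenitors, had 181 and 306 CPM in TLC, against 21.2 and 31.01 CPM in TBC (log2 3.21 ± 0.55, adjusted p = 0.00411). Aldh1a3, the retinal dehydrogenase used as a progenitor marker, had 91.7 and 138 CPM in TLC, against 8.05 and 9.09 CPM in TBC (log2 3.74 ± 0.44, adjusted p = 0.000424). Wfdc18, a whey acidic protein family member, had 284 and 273 CPM in TLC, against 13.7 and 22.9 CPM in TBC (log2 3.91 ± 0.32, adjusted p = 4.93e-05), and Lif and Ltf, both secreted, were higher by 2.91 and 2.36. Slpi, a secreted protease inhibitor, had 129.8 and 110.5 CPM in TLC, against 152 and 105 CPM in TBC and did not differ beyond its error (log2 -0.10 ± 0.38, adjusted p = 0.91), while it had 7.80 and 6.68 CPM in LC, against 247 and 178 CPM in BC. The difference between both pairs was 4.78 for Slpi (adjusted p = 0.00693), with adjusted p = 0.0523 without TBC replicate 2.

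Milk genes gave 4 calls among 13 tested, all higher in TLC (5.59% of all genes were higher), and a median of 0.72. Scd1, a fatty acid desaturase, had 377 and 265 CPM in TLC, against 91.4 and 121 CPM in TBC (log2 1.59 ± 0.26, adjusted p = 0.00171). Csn3, kappa-casein, had 437 and 414 CPM in TLC, against 65.5 and 111 CPM in TBC (log2 2.26 ± 0.63, adjusted p = 0.0451) and lost its call when any of the 4 libraries was left out, with adjusted p up to 0.229. Csn2, beta-casein, had 22.3 and 133 CPM in TLC, against 39.5 and 81.4 CPM in TBC, so that the spread within TLC exceeded the gap (log2 0.37 ± 1.06, adjusted p = 0.879). The other calls were Btn1a1 and Xdh, both of the milk fat globule, and they were lost in 3 and 4 of those 4 fits. Each such fit called 1 or 2 milk genes higher.

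**Figure D3:**
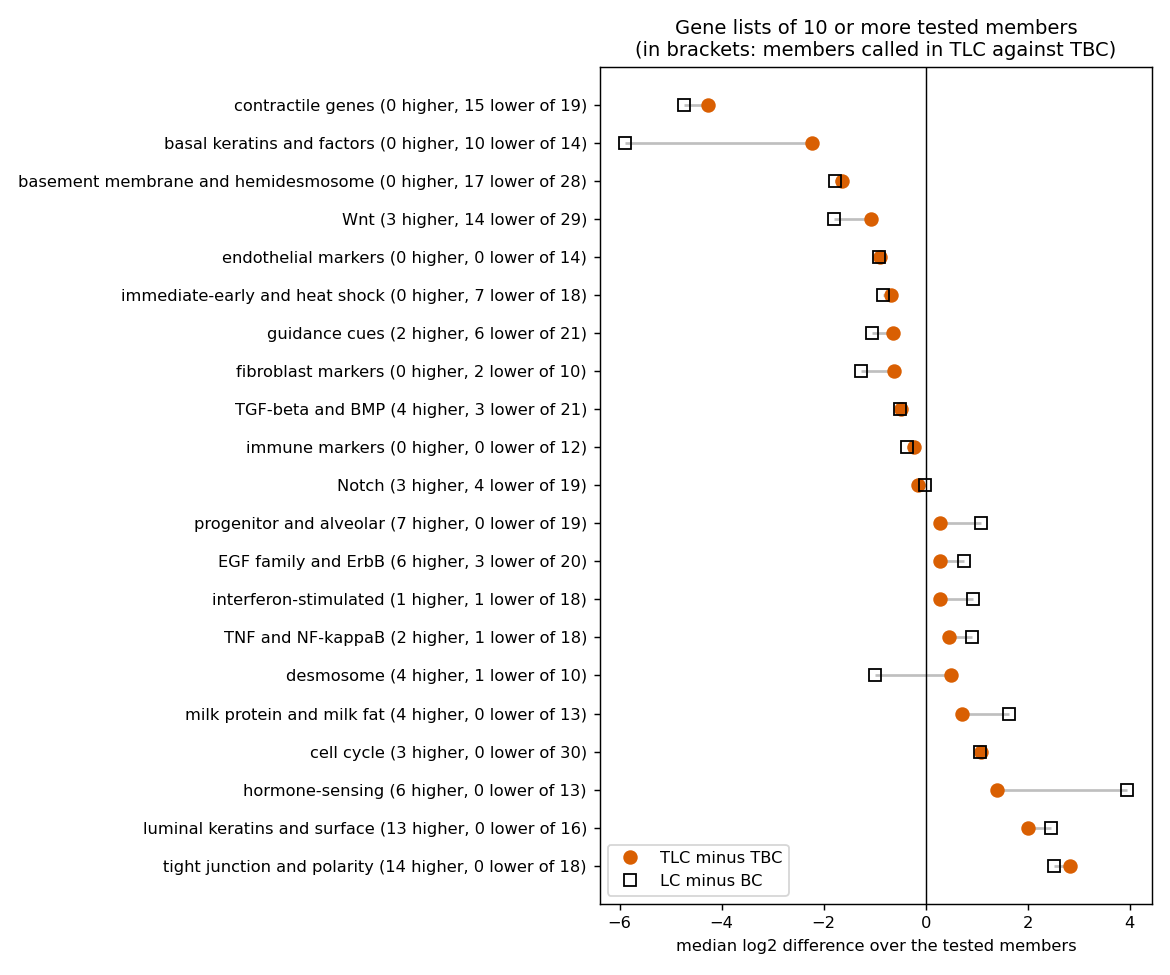
Median log2 difference over the tested members of each list with 10 or more of them, TLC minus TBC as filled circles and LC minus BC as open squares, ordered from the most negative median of TLC minus TBC. Medians of contractile, basement membrane, tight-junction and luminal keratin lists lie close in both pairs, while those of basal keratins and factors (-2.24 and -5.90), hormone-sensing genes (1.39 and 3.96) and desmosome genes (0.50 and -1.001) lie apart.

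Outside the lists, the genes with the highest differences in TLC were led by Sez6, which encodes a neuronal membrane protein (chr11:77930800-77979048, plus strand). Sez6 had 25.3 and 17.6 CPM in TLC, against 0.316 and 0.0733 CPM in TBC, from 337 pooled counts in TLC and 3 in TBC, a ratio of 134 with a counting interval of 45.6 to 655 (95%). Its adjusted p was 0.000299. LC and BC were at or near the floor of 3 counts, with 0.108 and 0.144 CPM in LC, against 0.784 and 0.170 CPM in BC. Fbp1, the gluconeogenic fructose bisphosphatase, had 21.4 and 24.5 CPM in TLC, against 0.316 and 0.147 CPM in TBC (log2 6.72 ± 0.94, adjusted p = 0.00102). Cst6, a cystatin protease inhibitor, had 20.3 and 27.8 CPM in TLC, against 0.158 and 0.440 CPM in TBC (log2 6.10 ± 1.03, adjusted p = 0.00331). It was also low in the other pair, with 0.325 and 0.431 CPM in LC, against 0.196 and 0.255 CPM in BC. Elfn1, Wfdc12, Pou2f3, Alox15, Clca1, Snorc and Gabrp completed the 10, with log2 differences between 4.90 for Gabrp and 5.60 for Elfn1. Pou2f3, the tuft cell transcription factor, had 25.3 and 10.2 CPM in TLC, against 0.474 and 0.440 CPM in TBC (log2 5.24 ± 1.10, adjusted p = 0.0115). Its call was lost without TLC replicate 1, TBC replicate 1 or TBC replicate 2 (adjusted p up to 0.104), and that of Snorc without either TBC library (up to 0.0705).

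The lowest differences by the same rule again held muscle-type genes. Asb2, a ubiquitin ligase subunit of muscle, had 0.175 and 0.364 CPM in TLC, against 32.4 and 38.9 CPM in TBC (log2 -6.85 ± 0.67, adjusted p = 9.97e-05). Scn7a, a sodium channel family member, had 5.09 and 8.46 CPM in TLC, against 746 and 476 CPM in TBC (log2 -6.46 ± 0.71, adjusted p = 0.000404). Kcnmb1, the smooth-muscle beta subunit of the large-conductance potassium channel, had 0.175 and 0.910 CPM in TLC, against 47.5 and 58.8 CPM in TBC (log2 -6.37 ± 0.74, adjusted p = 0.000419), and Popdc2, a cyclic AMP binding protein of striated muscle, had 0 and 0.455 CPM in TLC, against 18.8 and 30.9 CPM in TBC (log2 -6.37 ± 0.88, adjusted p = 0.00101). Nkain3, Sorcs1, Tmem200a and the Wnt inhibitor Nkd1 followed at -6.16, -6.10, -6.01 and -5.98. Of the 5 genes with the smallest adjusted p on each side, Kcnn4, a calcium-activated potassium channel, had 70.2 and 72.1 CPM in TLC, against 3.32 and 3.37 CPM in TBC (log2 4.40 ± 0.26, adjusted p = 2.50e-05), and Il17b, a cytokine of the interleukin 17 family, had 1.93 and 1.82 CPM in TLC, against 40.4 and 59.7 CPM in TBC (log2 -4.74 ± 0.32, adjusted p = 2.64e-05). Mboat1, Zfp750, Clip3 and Phldb1 were at 3.01, 4.60, -5.68 and -3.12.

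In the Notch pathway, a contact signal in which a ligand on 1 cell activates a receptor on its neighbour, the ligands that were called were lower in TLC and the receptors that were called were higher. Jag2 had 19.5 and 13.1 CPM in TLC, against 274 and 354 CPM in TBC (log2 -4.28 ± 0.31, adjusted p = 3.42e-05). Dll1, a ligand of mammary stem cells in mice, had 20.7 and 12.4 CPM in TLC, against 252 and 229 CPM in TBC (log2 -3.88 ± 0.33, adjusted p = 5.31e-05), and Jag1 had a log2 difference of -1.01 (adjusted p = 0.0318), a call lost without TLC replicate 2 or TBC replicate 1 (adjusted p up to 0.217). Notch3 had 247 and 358 CPM in TLC, against 38.5 and 38.8 CPM in TBC (log2 2.97 ± 0.32, adjusted p = 0.000157) and Notch1 had 453 and 497 CPM in TLC, against 180.1 and 158 CPM in TBC (log2 1.49 ± 0.23, adjusted p = 0.00151). None of the 6 target genes tested, such as Hes1 and Hey1, was called by edgeR, DESeq2 or limma-voom, and 1 had an unadjusted p under 0.05 (adjusted p of Hes1 0.311 and of Hey1 0.348). In all, 3 of 19 genes were higher and 4 lower, against 5.59% and 8.02% of all genes. The fourth lower gene was the glycosyltransferase Lfng (log2 -2.40 ± 0.46, adjusted p = 0.00534), a call lost without TLC replicate 1 (log2 -2.14).

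Wnt genes, which maintain basal progenitors, were lower in TLC in 14 of 29 cases and higher in 3. The shares of all genes were 8.02% and 5.59%, and the median of the list was -1.08. Of 11 receptors, 7 were lower and 0 higher. Fzd7 had 135 and 142 CPM in TLC, against 706 and 763 CPM in TBC (log2 -2.41 ± 0.32, adjusted p = 0.000566) and Lgr6 had 79.8 and 90.9 CPM in TLC, against 539 and 775 CPM in TBC (log2 -2.94 ± 0.46, adjusted p = 0.00207). Lgr5, the R-spondin receptor of stem cells, had 118 and 62.2 CPM in TLC, against 382 and 259 CPM in TBC (log2 -1.83 ± 0.39, adjusted p = 0.00955), beside 7.70 and 3.52 CPM in LC, against 423 and 592 CPM in BC. Its difference between both pairs was 4.69 ± 0.57 (adjusted p = 0.00693), and this call was kept in all 8 fits that left out a library. Axin2, the feedback target of Wnt signals, had 4.39 and 5.37 CPM in TLC, against 46.3 and 54.8 CPM in TBC (log2 -3.36 ± 0.35, adjusted p = 0.000128). Ligands lay on both sides, Wnt7b higher (17.2 and 24.5 CPM in TLC, against 3.47 and 2.79 CPM in TBC, log2 2.76 ± 0.31, adjusted p = 0.000201) and Wnt6 lower (1.58 and 0.364 CPM in TLC, against 19.1 and 30.9 CPM in TBC, log2 -4.86 ± 0.79, adjusted p = 0.00235). Ccnd1, cyclin D1, listed as a target, was higher (548 and 516 CPM in TLC, against 51.8 and 89.1 CPM in TBC, log2 2.91 ± 0.27, adjusted p = 7.26e-05). Secreted antagonists included Wif1 (7.02 and 6.19 CPM in TLC, against 158 and 189 CPM in TBC, log2 -4.72 ± 0.51, adjusted p = 0.000323) and Dkk3 (log2 -2.79 ± 0.27, adjusted p = 9.40e-05), both lower, and the Sfrp1 gap of -1.04 was not called (adjusted p = 0.2). Without 1 library the list gave 9 to 12 lower calls.

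ErbB receptors divided between the populations. Egfr had 100.3 and 87.8 CPM in TLC, against 339.7 and 273 CPM in TBC (log2 -1.70 ± 0.32, adjusted p = 0.00414), a call lost without TLC replicate 2 (adjusted p = 0.0538), whereas Erbb2, Erbb3 and Erbb4 were higher in TLC. Erbb3 had 314 and 336 CPM in TLC, against 34.3 and 33.4 CPM in TBC (log2 3.26 ± 0.25, adjusted p = 4.22e-05). Among ligands Areg and Btc were higher and Nrg2 was lower, and Dusp4 and Spry1, both feedback inhibitors, had log2 differences of 1.997 and -1.76. In the TGF-beta and BMP list, 4 of 21 genes were higher and 3 lower, against 5.59% and 8.02% of all genes. Inhba and Inhbb, which encode activin subunits, had 16.8 and 14.5 CPM in TLC, against 1.58 and 0.586 CPM in TBC (log2 3.96 ± 0.62, adjusted p = 0.00155) and 168 and 239 CPM in TLC, against 34.6 and 35.8 CPM in TBC (log2 2.53 ± 0.28, adjusted p = 0.000166). Tgfbr3, betaglycan, had 82.6 and 58.2 CPM in TLC, against 648 and 903 CPM in TBC (log2 -3.46 ± 0.36, adjusted p = 0.000126). Bmp7 was lower (log2 -1.92 ± 0.26, adjusted p = 0.000589), and of the 6 target genes edgeR called 0 and DESeq2 2, with 2 at an unadjusted p under 0.05.

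Guidance cues, which act in bilayer adhesion, were lower in TLC in 6 of 21 cases and higher in 2, against 8.02% and 5.59% of all genes, and each fit that left out a library called 1 higher and 4 to 6 lower. Slit3 and Slit2, ligands of Robo receptors, had log2 differences of -4.28 and -1.87 (adjusted p = 0.000972 and 0.00229). Ntn1, netrin 1, was higher in TLC (101 and 196 CPM in TLC, against 16.7 and 19.9 CPM in TBC, log2 3.01 ± 0.38, adjusted p = 0.000562), and its receptor Neo1 was lower (log2 -0.91 ± 0.22, adjusted p = 0.0178), a call lost without TLC replicate 2 or TBC replicate 1 (adjusted p up to 0.129). Of the TNF list, 2 of 18 genes were higher and 1 lower, near the shares of all genes (5.59% and 8.02%). Tnf itself, the founding cytokine of the family, had 28.4 and 29.4 CPM in TLC, against 7.10 and 3.74 CPM in TBC (log2 2.46 ± 0.43, adjusted p = 0.00311), beside 84.2 and 36.5 CPM in LC, against 11.8 and 7.82 CPM in BC. Its receptors Tnfrsf1a and Tnfrsf1b were not called (adjusted p = 0.117 and 0.341), nor were the 6 target genes by edgeR, DESeq2 or limma-voom (1 at an unadjusted p under 0.05). Tnfrsf11a, the RANK receptor, was lower in TLC (log2 -1.61 ± 0.31, adjusted p = 0.00482).

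Ligands and receptors of 29 known pairs were set side by side, all tested. Both members were called in 9 pairs, and in each of those 9 ligand and receptor were called in opposite directions. Of all genes, 13.6% were called, 5.59% higher and 8.02% lower in TLC. A member called lower in a population was not thereby absent from it, as the levels of Kitl and Lifr below show. In 19 pairs exactly 1 member was called and in 1 neither was. Ligand lower and receptor higher in TLC was found for Jag2 and Notch3, Jag1 and Notch1, Kitl and Kit, and Bmp7 and Bmpr1b. The reverse was found for Areg and Egfr, Wnt4 and Fzd7, Ntn1 and Neo1, Inhba and Acvr2a, and Lif and Lifr. Kitl, the Kit ligand, had 333 and 264 CPM in TLC, against 969.5 and 951 CPM in TBC (log2 -1.68 ± 0.26, adjusted p = 0.00151), and Lifr had 224 and 176 CPM in TLC, against 785 and 591 CPM in TBC (log2 -1.78 ± 0.29, adjusted p = 0.00203). Since the calls of Jag1, Neo1, Egfr and Wnt4 were each lost without some library, the count depends on the library left out. The pairs were chosen with earlier results of these data known, so the count is a description, and transcripts do not show that a signal passes.

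**Figure D4:**
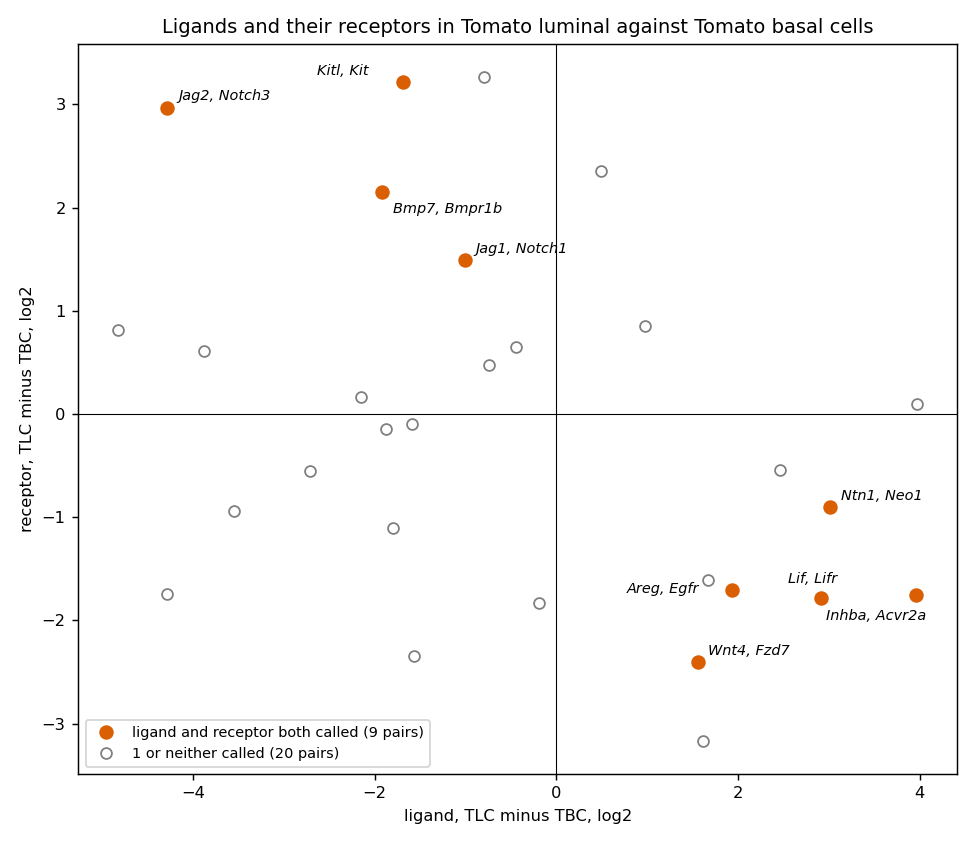
Log2 difference of TLC minus TBC of the ligand (x axis) and of its receptor (y axis) in 29 pairs, filled where both were called and open otherwise. The 9 filled pairs lie in the upper left and lower right fields, and none lies where ligand and receptor move together.

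Cell cycle genes were higher in TLC in 3 of 30 cases (Ccnb2, Cenpe and Birc5), against 5.59% of all genes higher, with a median of 1.09, and this result turned on the TBC libraries. Mki67, the proliferation marker, had 582 and 466 CPM in TLC, against 69.9 and 251 CPM in TBC, and did not pass (log2 1.70 ± 0.52, adjusted p = 0.0639). Summed over the 30 genes, the level was 2870.6 and 1986 CPM in TLC, against 560.1 and 1739 CPM in TBC. TBC replicate 1 was thus low and TBC replicate 2 close to TLC. Without TBC replicate 2, 24 of 30 genes were called higher in TLC, and without TBC replicate 1, or without either TLC library, 0 were. In LC and BC the sums were lower, at 485 and 544 CPM in LC and 445 and 360.5 CPM in BC.

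Immediate-early genes, which also answer to cell dissociation, were lower in TLC in 7 of 14 cases, against 8.02% of all genes lower. Of the 4 heat-shock genes, 0 were called by edgeR, DESeq2 or limma-voom, or had an unadjusted p under 0.05. Fos had 1397 and 1763 CPM in TLC, against 4427 and 3377 CPM in TBC (log2 -1.30 ± 0.30, adjusted p = 0.0134) and Egr2 had 53.5 and 35.3 CPM in TLC, against 309 and 340.4 CPM in TBC (log2 -2.88 ± 0.30, adjusted p = 0.000121). Without 1 library, 1 to 4 genes of the combined list were lower. The call of Fos was lost without TLC replicate 1 or TBC replicate 1 (adjusted p up to 0.103). Of 18 interferon-stimulated genes 1 was higher and 1 lower, near the shares of all genes (5.59% and 8.02%). Ifih1 was higher (log2 1.21 ± 0.28, adjusted p = 0.0131) and Ifit2 lower (log2 -1.78 ± 0.52, adjusted p = 0.0433). Both calls were lost in 3 of the 4 fits that left out a library (adjusted p up to 0.0858 and 0.233).

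Markers of other cells were present at low levels. Endothelial markers were called in 0 of 14 cases, their summed level being 149 and 184 CPM in TLC and 287 and 296 CPM in TBC. All 14 nevertheless had a negative log2 difference, with a median of -0.90. Immune markers were called in 0 of 12 (39.5 and 44.7 CPM in TLC, against 67.6 and 37.7 CPM in TBC). Of all genes, 13.6% were called. Of 10 fibroblast markers 2 were lower in TLC, Pdgfra and Dcn, against 8.02% of all genes lower. The sums of this list were 120.2 and 369.7 CPM in TLC and 331 and 616 CPM in TBC. Of 6 pericyte markers 2 were lower, Pdgfrb and Cspg4, against the same share of all genes. Their list summed to 18.9 and 23.8 CPM in TLC and 92.7 and 81.1 CPM in TBC. Among endothelial markers DESeq2 called 1 and 2 had an unadjusted p under 0.05 in edgeR, and among immune markers both counts were 0. A fit of TLC and TBC alone called 6 endothelial markers lower in TLC, and the fit with no low-count filter called 5. Rgs5, a signalling regulator of pericytes, had 9.82 and 15.5 CPM in TLC, against 55.7 and 38.6 CPM in TBC with no call (adjusted p = 0.311). Without 1 library, 0 or 1 fibroblast and 1 or 2 pericyte markers were called. Pericytes also carry contractile genes, and their part in the contractile difference was not tested. Among Schwann cell markers Mbp was higher, and of 2 adipocyte markers tested Lep was lower, with 0 counts in TLC and 25 in TBC, at least 6.96-fold lower when TLC is set to the floor of 3 pooled counts. Lep lost its call without TLC replicate 1, TLC replicate 2 or TBC replicate 1 (adjusted p up to 0.259).

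Across genes, the luminal to basal difference of the Tomato pair followed that of LC and BC, which share no library with it. Pearson's r was 0.748 and Spearman's rho 0.677 over 19757 genes, which are not independent replicates, and the least-squares slope of TLC minus TBC on LC minus BC was 0.588. Of the 4742 genes called between LC and BC (24.0% of those tested), 2123 were called in the same direction between TLC and TBC. They made up 44.8% of the calls in LC and BC and 79.0% of those in TLC and TBC. Another 549 genes were called only between TLC and TBC, which by itself does not show a difference between the pairs. A further 17 were called in opposite directions. Those 17, named after their values were seen, included Dsg3 and Pkp1, higher in TLC than in TBC and lower in LC than in BC, and the potassium channel gene Kcnma1 (not called between TLC and TBC in 3 of 4 fits without a library), lower in TLC (4.21 and 3.37 CPM in TLC, against 12.3 and 13.7 CPM in TBC) and higher in LC (18.3 and 26.6 CPM in LC, against 5.68 and 13.7 CPM in BC).

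The difference between both pairs was called in 180 genes (0.911%). In 160 of them the gap was smaller between TLC and TBC than between LC and BC, in 100 of these with the gene lower in LC than in BC and in 60 with it higher. In 20 it was larger. At an unadjusted p under 0.05, 2101 genes passed. Beside those described above, the highest differences were in Tox, Col10a1, Egfl6, Stat4, Pthlh and Ppic. Pthlh, parathyroid hormone-related protein, had 20.00 and 22.6 CPM in TLC, against 32.5 and 38.8 CPM in TBC (log2 -0.75 ± 0.28, adjusted p = 0.108), beside 0.434 and 0.215 CPM in LC, against 13.7 and 19.7 CPM in BC, with a difference between pairs of 4.97 ± 0.50 (adjusted p = 0.00382). Egfl6, a secreted EGF-like protein, had 2.81 and 6.01 CPM in TLC, against 15.5 and 16.9 CPM in TBC (log2 -1.84 ± 0.44, adjusted p = 0.0155, a call lost in 3 of 4 fits without a library), beside 0.325 and 0.144 CPM in LC, against 21.8 and 35.5 CPM in BC. Tox, a chromatin-associated factor of lymphocytes, had 9.30 and 6.01 CPM in TLC, against 15.5 and 10.6 CPM in TBC and was not called in this pair (adjusted p = 0.332), beside 0.650 and 0.0718 CPM in LC, against 24.9 and 18.6 CPM in BC. The LC levels of Pthlh, Egfl6 and Tox were at or near 3 counts (0.325 and 0.215 CPM in LC). The sizes of their differences between pairs are therefore poorly measured.

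Col10a1 and Stat4 were of another kind, since LC and BC were both low. Col10a1, the collagen X of growth plates, had 29.8 and 11.6 CPM in TLC, against 0.631 and 0.953 CPM in TBC (log2 4.62 ± 0.62, adjusted p = 0.000562), beside 0.542 and 1.51 CPM in LC, against 1.57 and 1.53 CPM in BC. Stat4 had 12.5 and 16.4 CPM in TLC, against 0.474 and 1.17 CPM in TBC (log2 4.003 ± 0.66, adjusted p = 0.00206), beside 0.867 and 0.431 CPM in LC, against 2.35 and 0.680 CPM in BC. Their difference between pairs, 5.15 and 5.11, was kept in 3 and 2 of the 8 fits that left out a library (adjusted p up to 0.103 and 0.155). That of Sez6 was kept in 1 (adjusted p up to 0.209, without BC replicate 1).

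Several genes at the negative end had a far larger gap between LC and BC than between TLC and TBC. Trpc6, a cation channel (chr9:8544142-8680741, plus strand), had 4.74 and 8.92 CPM in TLC, against 5.21 and 3.08 CPM in TBC, with no call (log2 0.80 ± 0.36, adjusted p = 0.191), beside 108 and 118 CPM in LC, against 7.06 and 5.36 CPM in BC, and a difference between pairs of -3.41 ± 0.50 (adjusted p = 0.011). Tmem158 and Kif5c, a kinesin motor, were alike, at -3.31 and -3.21 (adjusted p = 0.00528 and 0.00693). Muc16, a surface mucin, was higher in TLC with 8.42 and 17.7 CPM in TLC, against 6.31 and 5.35 CPM in TBC (log2 1.21 ± 0.35, adjusted p = 0.041, a call lost in 3 of 4 fits without a library), beside 366 and 280.3 CPM in LC, against 18.2 and 13.9 CPM in BC. These 4, and Col8a1, Tenm1, Agtr1a, Ctse and Kcnma1, were named after their values were seen. Mgat3, a glycosyltransferase, was lower in TLC (0.702 and 1.64 CPM in TLC, against 13.1 and 14.4 CPM in TBC, log2 -3.44 ± 0.53, adjusted p = 0.00137), unlike LC and BC (12.6 and 24.9 CPM in LC, against 5.68 and 12.2 CPM in BC). The protocadherin alpha cluster on chr18 filled most of the negative end, with 11 of its 14 tested entries called. Those entries share their last exons and gave almost the same counts, so they are 1 locus, at 5.26 and 5.10 CPM in TLC, against 6.16 and 4.62 CPM in TBC, and 109 and 30.4 CPM in LC, against 5.88 and 3.66 CPM in BC, for Pcdha1. The call was kept in 2 of the 8 fits that left out a library, and LC replicate 1 was well above LC replicate 2.

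**Figure D5:**
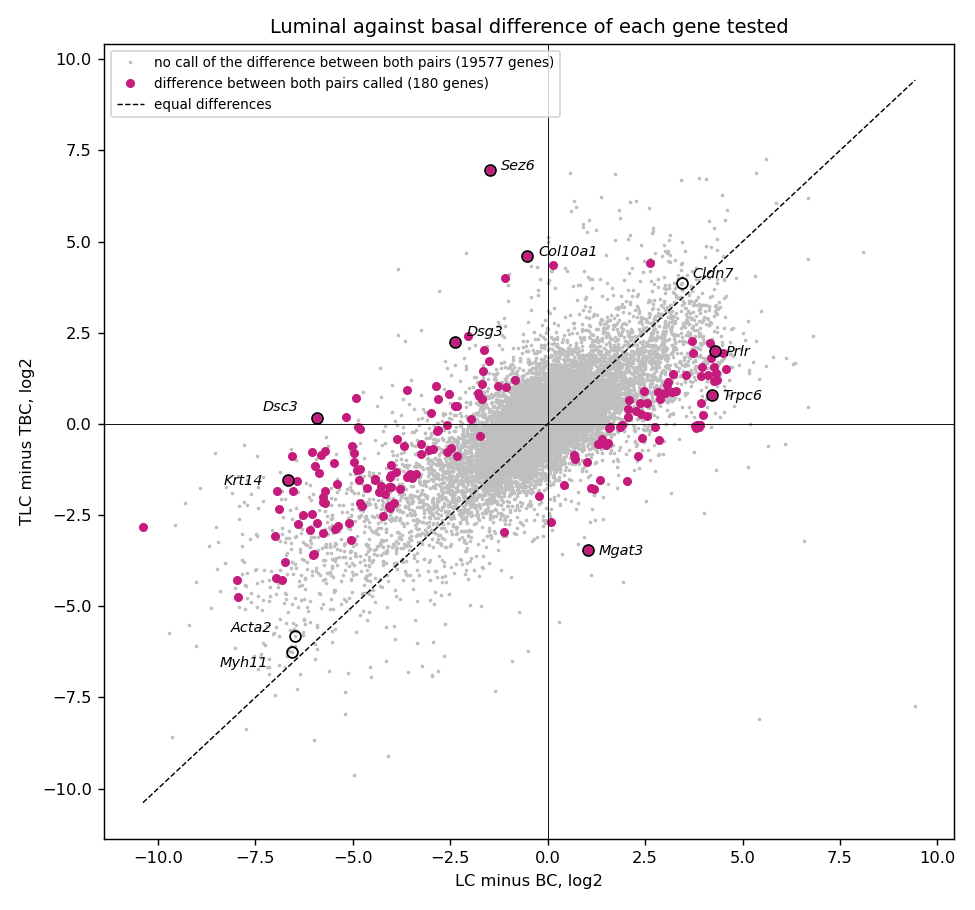
Log2 difference of TLC minus TBC (y axis) against LC minus BC (x axis) for 19757 genes, with the 180 genes whose difference between both pairs was called in pink and the line of equal differences dashed. Krt14 and Dsc3 lie far above the line at the left, Prlr and Trpc6 below it at the right, and Acta2, Myh11 and Cldn7 close to it.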

How the data were processed

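RNA of sorted cells (RNeasy Micro) was made into Ovation Solo libraries and sequenced on a NovaSeq instrument, per the labels' protocols. The deposited values are raw counts per gene that the authors made with STAR and HTSeq on GRCm38/mm10, per the submitters' processing notes, which name no versions. Neither the strand setting nor the annotation release is given in the sources used here. Reads of overlapping genes (7575 of 19757 tested) can therefore not be told apart. Of 49671 identifiers, 49326 matched GENCODE M21, which gave names and coordinates. Reads without a gene, 12.6% to 30.8% of a library, stayed out of totals.

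Counts of all 10 libraries were fitted together with edgeR 4.0.16 (R 4.3.3): filterByExpr, TMM factors and the robust quasi-likelihood test with 5 residual degrees of freedom, adjusted by Benjamini-Hochberg over 19757 genes, called under 0.05. Contrasts were TLC minus TBC, LC minus BC, and the first minus the second. SE is the log2 difference divided by the square root of F. On simulated counts with 100 genes changed 2-fold and 100 changed 4-fold between TLC and TBC, 4 and 58 were called, beside 6 of 19557 unchanged genes. For the difference between both pairs 1 and 19 of 100 were called, beside 3 unchanged genes. The simulation changed 200 genes, while 2689 were called between TLC and TBC in the data. The adjustment depends on how many genes differ, so the recovery does not carry over directly to that comparison.

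The members and lists were chosen with earlier results of these data known, and some lists follow that earlier work. Named genes are the 10 highest and 10 lowest differences of TLC minus TBC among called genes without overlap that reached 10 CPM in both libraries of the higher population, the same number for the difference between pairs, up to 5 called members of each list by adjusted p, members that differ from their role, 20 anchor genes, both members of called ligand and receptor pairs, and the 5 smallest adjusted p on each side. Other members are examples chosen after their values were seen. Alternatives were limma-voom (limma 3.58.1), DESeq2 1.42.0, other size factors and filters, thinned counts, a 2-fold threshold (glmTreat) and leaving out each library. Library numbers form 2 sets, 1 for each replicate number, which the labels do not call a batch or tie to animals, so the main test has no block for them.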

Additional observations from a re-analysis of the deposited data

Results flagged for a closer look

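The test of the difference itself, (TLC minus TBC) minus (LC minus BC) on the log2 scale, passed at an adjusted p under 0.05 for 53 of the genes named in the text, and the values of that difference are given in brackets. Basal keratins, factors and adhesion genes were Krt5 (3.92), Krt14 (5.13), Krt17 (3.65), Trp63 (2.43), Bcl11b (4.88) and Cdh3 (4.56). The desmosome genes were Dsc3 (6.08), Dsg3 (4.63) and Pkp1 (2.64). The basement membrane and contractile genes were Itga9 (1.86), Itgb6 (-2.11), Col17a1 (3.20), Thbs1 (2.65) and Tpm2 (2.43). The hormone-sensing and secretory genes were Esr1 (-1.84), Pgr (-2.31), Prlr (-2.27), Areg (-2.58), Wnt4 (-2.40) and Slpi (4.78). The signalling and immediate-early genes were Lgr5 (4.69), Sfrp1 (3.94), Dkk3 (2.58), Bmp7 (2.25), Slit2 (2.47), Ntn4 (2.28) and Egr3 (1.45). Outside the lists, the difference was positive in Col10a1 (5.15), Egfl6 (5.12), Ppic (4.96), Pthlh (4.97), Sez6 (8.46), Stat4 (5.11) and Tox (5.27). It was negative in Agtr1a (-3.09), Col8a1 (-3.74), Ctse (-3.07), Kcnma1 (-2.97), Kif5c (-3.21), Mgat3 (-4.48), Muc16 (-3.13), Tenm1 (-3.37), Tmem158 (-3.31) and Trpc6 (-3.41). The protocadherin alpha entries Pcdha1 (-3.94), Pcdha11 (-3.90), Pcdha12 (-3.90), Pcdha4 (-3.93), Pcdha5 (-3.92), Pcdha6 (-3.92), Pcdha7 (-3.91), Pcdha9 (-3.97) and Pcdhac1 (-3.90) share exons and count as 1 locus.

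The call was kept in all 8 fits that left out 1 library of either pair for Areg, Dsc3, Kif5c, Lgr5, Pkp1, Ppic, Pthlh and Tmem158, and in 0 of 8 for Itga9, Tenm1 and Thbs1. Itgb6, an integrin chain of epithelia, had 18.9 and 13.5 CPM in TLC, against 14.5 and 12.1 CPM in TBC, beside 55.2 and 56.9 CPM in LC, against 9.60 and 11.6 CPM in BC. Ppic, a cyclophilin, had 32.3 and 15.2 CPM in TLC, against 39.2 and 46.4 CPM in TBC (log2 -0.87 ± 0.39, adjusted p = 0.189), beside 0.650 and 0.287 CPM in LC, against 19.01 and 32.1 CPM in BC. The LC levels of Ppic were near 3 counts (0.325 and 0.215 CPM in LC). Tenm1, a teneurin, had 3.51 and 2.55 CPM in TLC, against 2.53 and 1.61 CPM in TBC, beside 14.4 and 15.2 CPM in LC, against 0.588 and 1.19 CPM in BC, and Col8a1, a short-chain collagen, had 20.2 and 22.5 CPM in TLC, against 27.6 and 9.31 CPM in TBC, beside 223 and 129.6 CPM in LC, against 14.7 and 8.16 CPM in BC.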

How the results depend on the processing

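Of 133 named genes called between TLC and TBC, 95 passed under every alternative run, and of 53 called for the difference between both pairs, 7 did (Dsc3, Kif5c, Lgr5, Pkp1, Ppic, Pthlh and Tmem158). Requiring more than a 2-fold difference (glmTreat) left 1069 genes called between TLC and TBC (400 higher, 669 lower), 2122 between LC and BC, 42 for the difference between pairs, and 5 pairs with ligand and receptor called in opposite directions. Leaving out 1 library gave 1491 to 1906 calls between TLC and TBC (610 to 856 higher, 840 to 1050 lower), 3141 to 3716 between LC and BC, and 36 to 254 for the difference between pairs. The lone library left in a population is then assumed to vary like the others. The difference between pairs also gave 505 calls with DESeq2 and 725 with no low-count filter, and with no filter Pearson's r between the pairs was 0.446. Without a block, the other settings with all 4 libraries gave 2522 (filter of 5 CPM) to 3412 (no filter) calls between TLC and TBC. Upper-quartile factors moved the median of all genes to 0.08 between TLC and TBC and to 0.169 for the difference between pairs, whose calls then split into 136 positive and 41 negative, against 109 and 71.

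Deviations from the population means within a set of library numbers correlated at 0.0854 for TLC and TBC and at 0.4079 for LC and BC, and between -0.0124 and 0.4209 over all pairs of populations. A replicate block of these sets gave 3561 calls between TLC and TBC and 425 for the difference between pairs. Medians of lists changed sign for Notch (0.0554 without TBC replicate 1, down to -0.207 without another library), interferon-stimulated genes (-0.336 without TLC replicate 1 and -0.363 without TBC replicate 2, up to 1.15 without another), immune markers (0.0589 without TBC replicate 1, down to -0.515) and Schwann markers (0.64 with a filter of 5 CPM). The cause of these changes was not tested. Thinning all libraries to at most 5381351 counts gave 2589 calls between TLC and TBC, and replicates of a population differed by 17.4 to 30.5 times counting noise (chi-square per degree of freedom).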
